A study of Mus musculus with 21 samples.

Results

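Metallothioneins and the genes that move zinc across membranes were followed in sorted neural stem and progenitor cells of the mouse, from the embryonic forebrain to the adult dentate gyrus. The set held 8 genes of the 24322 gene symbols in the files. They were the metallothionein genes Mt1, Mt2 and Mt3, the zinc-sensing transcription factor gene Mtf1, the zinc exporter genes Slc30a1 and Slc30a3, and the zinc importer genes Slc39a10 and Slc39a14. The genes were chosen by symbol, with expression values and comparisons of these same libraries already known, so the levels and tests below describe the genes and are not independent support for a pattern among them.

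All mice were Nestin-EGFP reporter animals on a C57BL/6 background, in which EGFP marks cells that use regulatory sequence of the nestin gene. Pregnant females received by mouth either methylcellulose, the control, or valproic acid (VPA, an antiepileptic drug and histone deacetylase inhibitor) at 300 mg/kg/day on embryonic days 12, 13 and 14. GFP-positive cells of the offspring were collected by flow cytometry at embryonic day 15 (E15) from forebrain, and at postnatal day 5 (P5) or 12 weeks from hippocampal dentate gyrus, and their polyadenylated RNA was sequenced. The 7 groups were control and VPA at each of the 3 ages, plus VPA with voluntary running at 12 weeks, with 3 libraries each. No control group with running was among the samples, and the step from E15 to P5 also changed the tissue. The labels do not say whether the 3 libraries of a group came from separate animals, so the spread between them, on which every p-value rests, may be partly technical.

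Expression values were FPKM, fragments scaled to transcript length and to the mapped fragments of the library, which allows levels of different genes to be set side by side. No read counts were given, so the depth behind each value is unknown. Between 16116 and 16734 genes were above 0 in an E15 library, 17251 to 17601 in a P5 library and 12019 to 15210 in a 12-week library. The stem cell gene Nes lay between 14.2 and 20.1 FPKM at E15, 9.89 and 13.4 at P5, and 7.86 and 18.7 at 12 weeks. Transcripts of other cell types were also present at 12 weeks, where 7 pericyte markers summed to 652 to 2164 FPKM and 7 endothelial markers to 75.03 to 439. In bulk samples, fewer cells of a type and less RNA per cell cannot be told apart. A marker sum also does not show which of the sorted cells held the transcripts, so it is no measure of cell number. One library stood apart at E15: in replicate 3 of the VPA group, 8 choroid plexus markers summed to 11220 FPKM, against 13.8 to 157 in the other 5 E15 libraries. The differences between VPA and control at E15 are given with and without that library.

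Metallothioneins are small, cysteine-rich proteins that bind zinc and copper ions and buffer their free concentration. Mt1 and Mt2 are widely expressed and are induced by metals, glucocorticoids and oxidative stress, and in the brain they are best known from astrocytes; Mt3 is the form most typical of the nervous system. When free zinc rises, MTF1 binds metal response elements in promoters and activates Mt1, Mt2 and Slc30a1, so that zinc is bound or pumped out. SLC30 proteins (ZnT) carry zinc out of the cytosol and SLC39 proteins (ZIP) carry it in: ZnT1 sits at the cell surface, ZnT3 loads zinc into synaptic vesicles of glutamatergic neurons, ZIP10 is a surface importer, and ZIP14 imports zinc, iron and manganese.

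The promoters are shown because metal response elements are the sequence that ties metallothioneins and the exporter gene to MTF1. The 3 metallothionein genes lie on the plus strand of chromosome 8 of GRCm38 (mm10), with Mt3 at chr8:94152607-94154146, Mt2 at chr8:94172664-94173568 and Mt1 at chr8:94179082-94180327. Together with Mt4 they span 43131 bases. Slc30a1 lies on the plus strand at chr1:191906767-191913247. RefSeq windows (build GRCm38.p6) of 250 bases before to 50 bases after the start of transcription annotated there were available for 7 of the 8 genes, not for Slc39a14. The windows below are chr8:94178839-94179138 for Mt1, chr8:94172368-94172667 for Mt2, chr1:191906531-191906830 for Slc30a1 and chr8:94152357-94152656 for Mt3, each written 5′ to 3′ on the plus strand. Capitals mark matches to the element's core, TGCACNC or TGCGCNC, on either strand; no matches overlapped.
Mt1: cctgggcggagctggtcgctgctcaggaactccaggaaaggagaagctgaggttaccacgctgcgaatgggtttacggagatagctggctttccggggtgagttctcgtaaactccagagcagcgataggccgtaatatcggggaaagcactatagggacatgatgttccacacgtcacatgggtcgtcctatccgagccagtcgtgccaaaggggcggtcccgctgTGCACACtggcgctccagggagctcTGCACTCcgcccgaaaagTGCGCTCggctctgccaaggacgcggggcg
Mt2: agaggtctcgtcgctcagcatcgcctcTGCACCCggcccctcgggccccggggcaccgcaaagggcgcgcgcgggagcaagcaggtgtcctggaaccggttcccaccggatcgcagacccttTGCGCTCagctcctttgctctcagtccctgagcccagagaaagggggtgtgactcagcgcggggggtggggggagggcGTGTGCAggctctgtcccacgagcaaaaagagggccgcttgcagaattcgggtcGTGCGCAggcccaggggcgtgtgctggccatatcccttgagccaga
Slc30a1: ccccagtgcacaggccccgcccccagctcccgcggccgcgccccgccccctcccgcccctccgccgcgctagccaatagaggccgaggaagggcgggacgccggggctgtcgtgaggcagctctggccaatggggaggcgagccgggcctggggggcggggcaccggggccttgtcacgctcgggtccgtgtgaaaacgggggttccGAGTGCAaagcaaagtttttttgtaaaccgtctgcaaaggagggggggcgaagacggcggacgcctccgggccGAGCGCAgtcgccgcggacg
Mt3: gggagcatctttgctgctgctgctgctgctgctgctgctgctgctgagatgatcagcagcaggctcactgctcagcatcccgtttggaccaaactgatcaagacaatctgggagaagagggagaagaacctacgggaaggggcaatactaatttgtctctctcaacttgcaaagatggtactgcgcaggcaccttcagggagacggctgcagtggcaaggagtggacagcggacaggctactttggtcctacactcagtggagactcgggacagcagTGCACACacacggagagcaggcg

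Mt2 held 4 matches, Mt1 held 3, Slc30a1 held 2 and Mt3 held 1. One of 2 Slc30a3 windows held 1 match, and the windows of Mtf1 and Slc39a10 held none. Among 32851 mouse promoter windows of this length, 25.7% held at least 1 match, 7.11% at least 2, 1.97% at least 3 and 0.517% at least 4. Of 18 other zinc transporter and metallothionein genes with a window, 10 had a match, and the windows of Slc30a4 and Slc30a10 held 3 each, as many as the window of Mt1. Windows on chromosome 18 were left out of this count of other genes, but not of the background. These counts depend on the annotated starts and are no ranking of the promoters, because matches outside the windows were not counted. For Mt2 the RefSeq start used lies before the gene start given above, and the window ends at 94172667, close to that start at 94172664.

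The largest differences in this gene set lay between ages. From E15 to P5 in control libraries, 5 of the 7 genes that could be tested rose and none fell, in a limma fit of log2(FPKM + 1) over all 21 libraries with Benjamini-Hochberg adjustment over 14662 genes (threshold 0.05). Over all genes, 20.7% were called in either direction and 14.4% rose. The median difference of the 7 genes was 1.32 on the log2 scale, beside 0.15 over all genes. With another scaling of the libraries (median of ratios), the split over all genes moved from 2110 risen and 928 fallen to 1818 and 1313, and the median to 0.05. From P5 to 12 weeks, Mt1 and Mt2 rose and no listed gene fell, against a background of 12.6% called and 7.26% risen; the median was 0.38, beside -0.04 over all genes. Both steps use the same P5 control libraries. The fit assumes the same spread in every group, although 12-week libraries varied more than P5 libraries. The p-values of the second step may therefore be too small. The eighth gene, Slc30a3, did not reach 1 FPKM in 3 libraries of any fit and was not tested.

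Mt1 had 9.88, 12.7 and 9.89 FPKM in the E15 control libraries, 167, 137 and 139.9 at P5, and 298, 522 and 466 at 12 weeks. The 3 ages did not overlap, and each step was upward. Its group mean was 13.7 times higher at P5 than at E15 (log2 difference 3.66, SE 0.33, limma adjusted p = 2.2e-07) and 2.9 times higher at 12 weeks than at P5 (1.49, SE 0.33, adjusted p = 0.00546).

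Mt2, which encodes the second widely expressed metallothionein, had 12.7, 12.2 and 9.29 FPKM at E15, 127, 109.8 and 116 at P5, and 160.5, 420.0 and 406 at 12 weeks in control libraries. The ages were again separate, although the first 12-week library lay close to the P5 values. The mean was 10.3 times higher at P5 than at E15 (log2 difference 3.27, SE 0.31, limma adjusted p = 3.71e-07) and 2.8 times higher at 12 weeks than at P5 (1.35, SE 0.31, adjusted p = 0.0069). The SE pools the spread of all groups. On the log2(FPKM + 1) scale the P5 controls ran from 6.79 to 6.995 and the 12-week controls from 7.34 to 8.72.

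Mt3 started from a higher level than the other metallothioneins, with 38.3, 47.7 and 31.7 FPKM in E15 control libraries. It had 261, 206 and 172 at P5 and 256, 497 and 570.1 at 12 weeks, so P5 lay above E15 while P5 and 12 weeks overlapped. Its mean was 5.42 times higher at P5 than at E15 (log2 difference 2.41, SE 0.44, limma adjusted p = 0.000575). The 12-week mean was 2.07 times the P5 mean, but that step did not pass the test (0.99, 95% interval 0.06 to 1.92, adjusted p = 0.169).

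The balance between the metallothioneins also shifted with age. The Mt1 level was 0.144 to 0.361 times the Mt3 level in the 6 E15 libraries (at least 0.258 without VPA replicate 3), 0.64 to 0.903 times in the 6 P5 libraries and 0.818 to 1.67 times in the 9 libraries at 12 weeks. Mt3 was thus the most abundant of the 3 in every E15 library, and at 12 weeks neither Mt1 nor Mt3 was consistently higher. The summed level of Mt1, Mt2 and Mt3 lay between 50.9 and 172 FPKM at E15, 428 and 554.5 at P5, and 635 and 1773 at 12 weeks. Ranked by FPKM among the 24322 symbols, the 3 genes stood between places 523 and 7845 at E15, 195 and 699 at P5, and 34 and 357 at 12 weeks. The upper ends at E15, place 523 and the sum of 172, both came from VPA replicate 3; in the other 5 E15 libraries the best place was 2189 and the highest sum 75.4 FPKM. Mt4, the epithelial metallothionein gene next to Mt3, was listed at 0 in all 21 libraries. How reads shared by these related genes were assigned is not given in the sources used here, so the split between Mt1 and Mt2 carries that uncertainty.

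**Figure D1:**
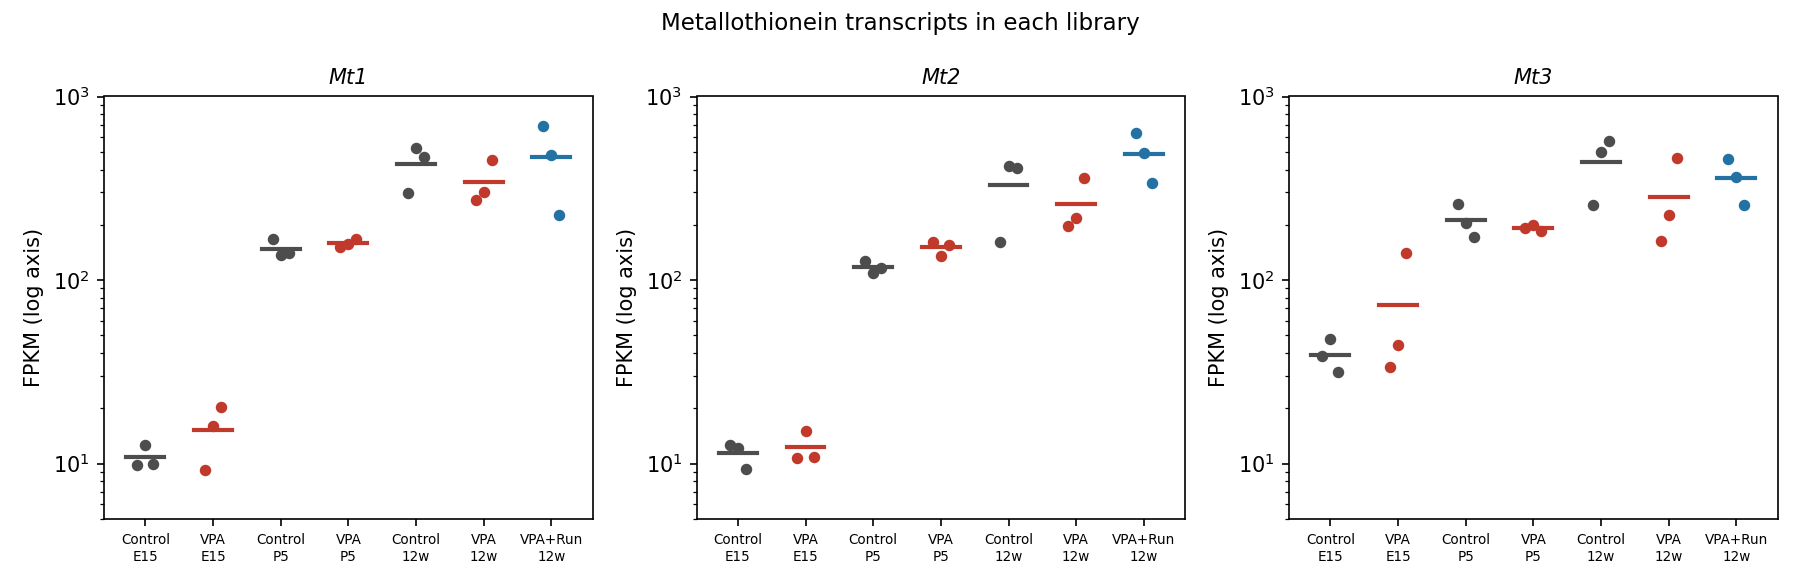
FPKM of Mt1, Mt2 and Mt3 in each of the 21 libraries on log axes; points are libraries, horizontal lines are means of 3 and colours mark control (grey), VPA (red) and VPA with running (blue). The 3 ages form steps in Mt1 and Mt2, and 1 VPA library at E15 stands at 140.6 FPKM in Mt3, above the other 5 E15 libraries.

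Markers of several cell types rose together with the metallothioneins from E15 to P5. Of 10 astrocyte markers, 9 rose and none fell at that step, and their summed level went from 52.1 to 62.5 FPKM in E15 control libraries to 737 to 876 in P5 control libraries. At E15, Gjb6 was listed at 0 in all 6 libraries and Aqp4, the water channel of astrocyte endfeet, was at 0.235 ± 0.0268 FPKM (SD, n = 3) in controls. From P5 to 12 weeks the markers divided, with 4 risen and 3 fallen, and summed to 716 to 1300 FPKM in 12-week control libraries. Over that second step all 7 pericyte and all 7 endothelial markers rose, from sums of 101 to 115 and 3.63 to 5.43 FPKM to 994 to 2164 and 245 to 439. The second step also raised 5 of 7 markers of oligodendrocytes and their precursors, to sums of 768 to 860 FPKM. Of the fibroblast markers 3 of 7 rose, and of the microglia markers 3 of 8. In the other direction, 2 of 7 radial glia markers, 1 of 6 newborn neuron markers and 3 of 4 tested erythroid markers fell. Other marker lists moved at the first step too: 6 of 7 markers of oligodendrocytes and their precursors rose, from sums of 17.2 to 21.8 to 222 to 296 FPKM, as did 5 of 7 pericyte markers, 4 of 7 radial glia markers and 3 of 4 tested erythroid markers, whose sums went from 20.1 to 63.4 to 727 to 1033. Also at the first step, 2 of 7 fibroblast and 2 of 8 microglia markers rose. Neuronal lists were divided there: 4 of 6 newborn neuron markers fell and 2 rose, and 3 of 9 neuron markers fell and 1 rose. The part of any of these in the metallothionein levels was not tested.

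**Figure D2:**
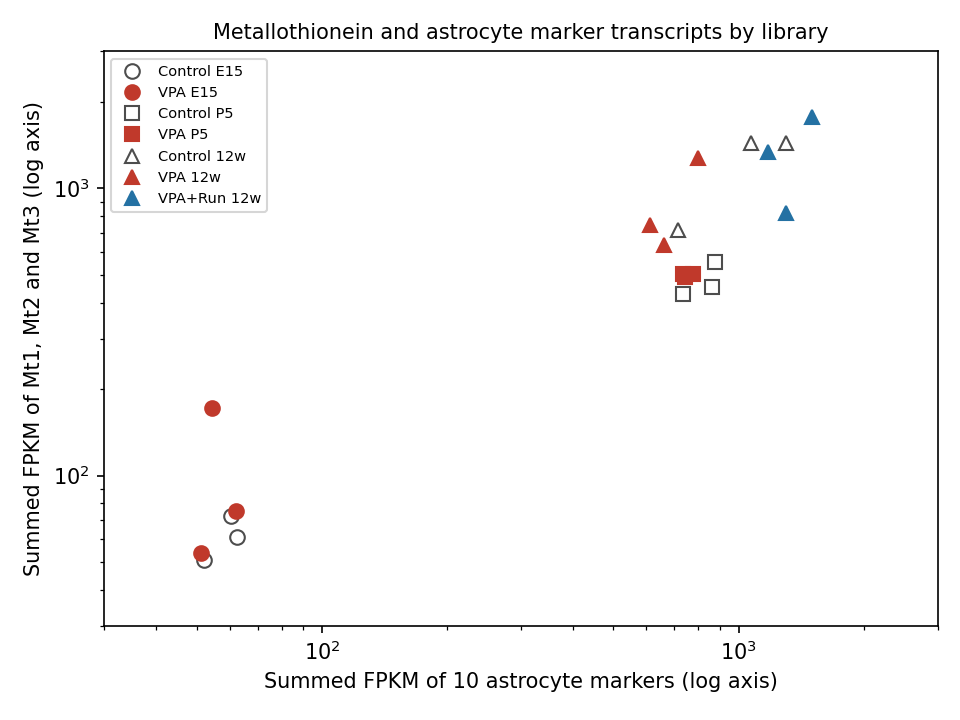
Summed FPKM of Mt1, Mt2 and Mt3 against the summed FPKM of 10 astrocyte markers, 1 point per library, both axes logarithmic. The E15 libraries lie at marker sums of 51.3 to 62.5 and the P5 and 12-week libraries at 611 to 1502, and the 12-week libraries lie above the P5 libraries in summed metallothionein level.

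Among the transporters, the surface exporter gene Slc30a1 had 3.16, 2.88 and 3.16 FPKM in E15 control libraries, 9.59, 8.56 and 9.46 at P5, and 10.8, 16.6 and 10.3 at 12 weeks. All P5 libraries lay above all E15 libraries, and the mean was 3 times higher at P5 (log2 difference 1.32, SE 0.23, limma adjusted p = 0.000279). The 12-week libraries all lay above the P5 libraries, but the step did not pass the test (0.38, 95% interval -0.10 to 0.86, adjusted p = 0.324).

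Slc39a14, the importer gene shared by zinc, iron and manganese, had 5.36, 3.98 and 5.53 FPKM at E15, 8.90, 10.03 and 8.23 at P5, and 8.48, 8.37 and 6.56 at 12 weeks in control libraries. It rose from E15 to P5 without overlap, with a mean 1.83 times higher (log2 difference 0.76, SE 0.23, limma adjusted p = 0.0252). This call was the least secure of the 5. The adjusted p was 0.05 (log2 difference 0.66) with median-of-ratios scaling, 0.0577 with a replicate block, 0.126 without the second E15 control, and 0.0681 and 0.102 without the first and the second P5 control.

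Slc39a10, which encodes the surface importer ZIP10, was the most abundant transporter gene of the set at E15, and its control values overlapped between neighbouring ages. It had 22.1, 21.7 and 21.1 FPKM at E15, 22.1, 23.4 and 22.0 at P5, and 24.7, 31.8 and 22.5 at 12 weeks. Neither step passed the test, with log2 differences of 0.06 (95% interval -0.30 to 0.41) and 0.20 (-0.16 to 0.56); the first became -0.06 with median-of-ratios scaling.

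Mtf1, the gene of the zinc sensor itself, had 4.83, 4.03 and 4.66 FPKM at E15, 5.63, 5.42 and 5.76 at P5, and 5.38, 3.92 and 4.62 at 12 weeks. The P5 libraries were the highest of the 3 ages and overlapped neither neighbour, but neither step passed the test (0.26, 95% interval -0.19 to 0.71, and -0.23, -0.68 to 0.22). Mtf1 ranged from 3.92 to 5.76 FPKM over all control libraries, while Mt1 ranged from 9.88 to 522.

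The vesicular zinc transporter gene Slc30a3 was near the lower end of measurement throughout. It had 0.0666 to 0.181 FPKM in E15 controls and 0.286 to 0.313 in P5 controls, and was listed at 0 in 7 of the 9 libraries at 12 weeks, with 1.46 in a control and 1.19 in a VPA library. Both VPA groups of the younger ages lay above their controls, at 0.25 to 0.382 FPKM at E15 and 0.448 to 0.588 at P5. Summed levels of 9 neuron markers were 299 to 332.5 FPKM in VPA and 308 to 362 in control libraries at E15, and 312 to 370.5 and 273 to 307 at P5; their part in the Slc30a3 values was not tested.

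**Figure D3:**
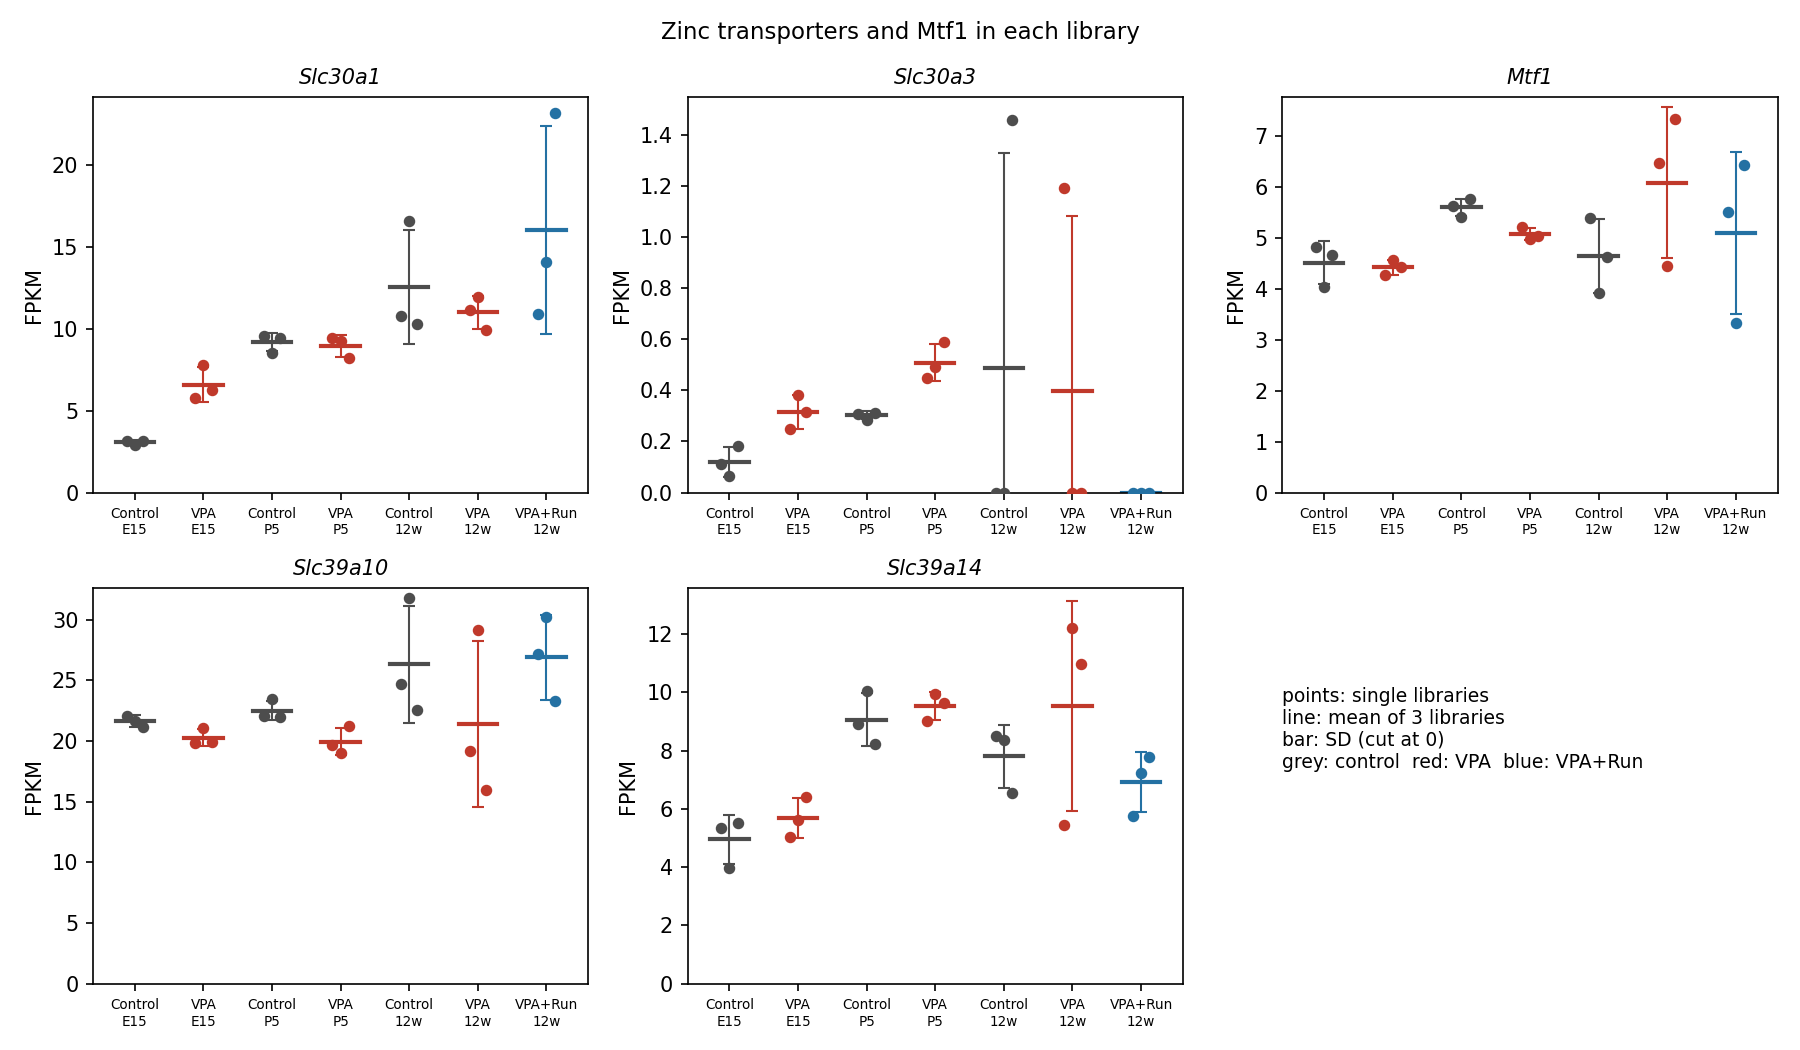
FPKM of Slc30a1, Slc30a3, Mtf1, Slc39a10 and Slc39a14 in each library on linear axes from 0; points are libraries, horizontal lines are means of 3 and bars are SD, drawn no lower than 0. The 3 VPA libraries at E15 lie at 5.75 to 7.78 in Slc30a1, all above the controls at 2.88 to 3.16.

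The other genes of zinc handling were taken as a whole family, 20 further Slc30 and Slc39 genes and Mt4, of which 16 could be tested across ages. From E15 to P5, 4 of the 16 rose and none fell, with a median of 0.26, beside 14.4% risen and a median of 0.15 over all genes. Slc39a12, a ZIP importer gene of the brain, had 0.0323 to 0.132 FPKM in E15 controls and 6.39 to 8.56 at P5 (log2 difference 3.01, limma adjusted p = 0.00156). Slc39a1, a widely expressed importer gene, had 9.01 ± 0.162 FPKM (SD, n = 3) at E15 and 26.9 ± 2.34 at P5 (1.48, adjusted p = 3.05e-05). Slc30a4 (0.71, adjusted p = 0.007) and Slc39a9 (0.49, adjusted p = 0.00962) rose as well. From P5 to 12 weeks none of the 16 was called in limma; 2 had an unadjusted p under 0.05, Slc39a9 (-0.32) and Slc30a9 (-0.31). Over all genes 12.6% were called at that step, so a count of 0 of 16 is not set apart from the background.

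**Figure D4:**
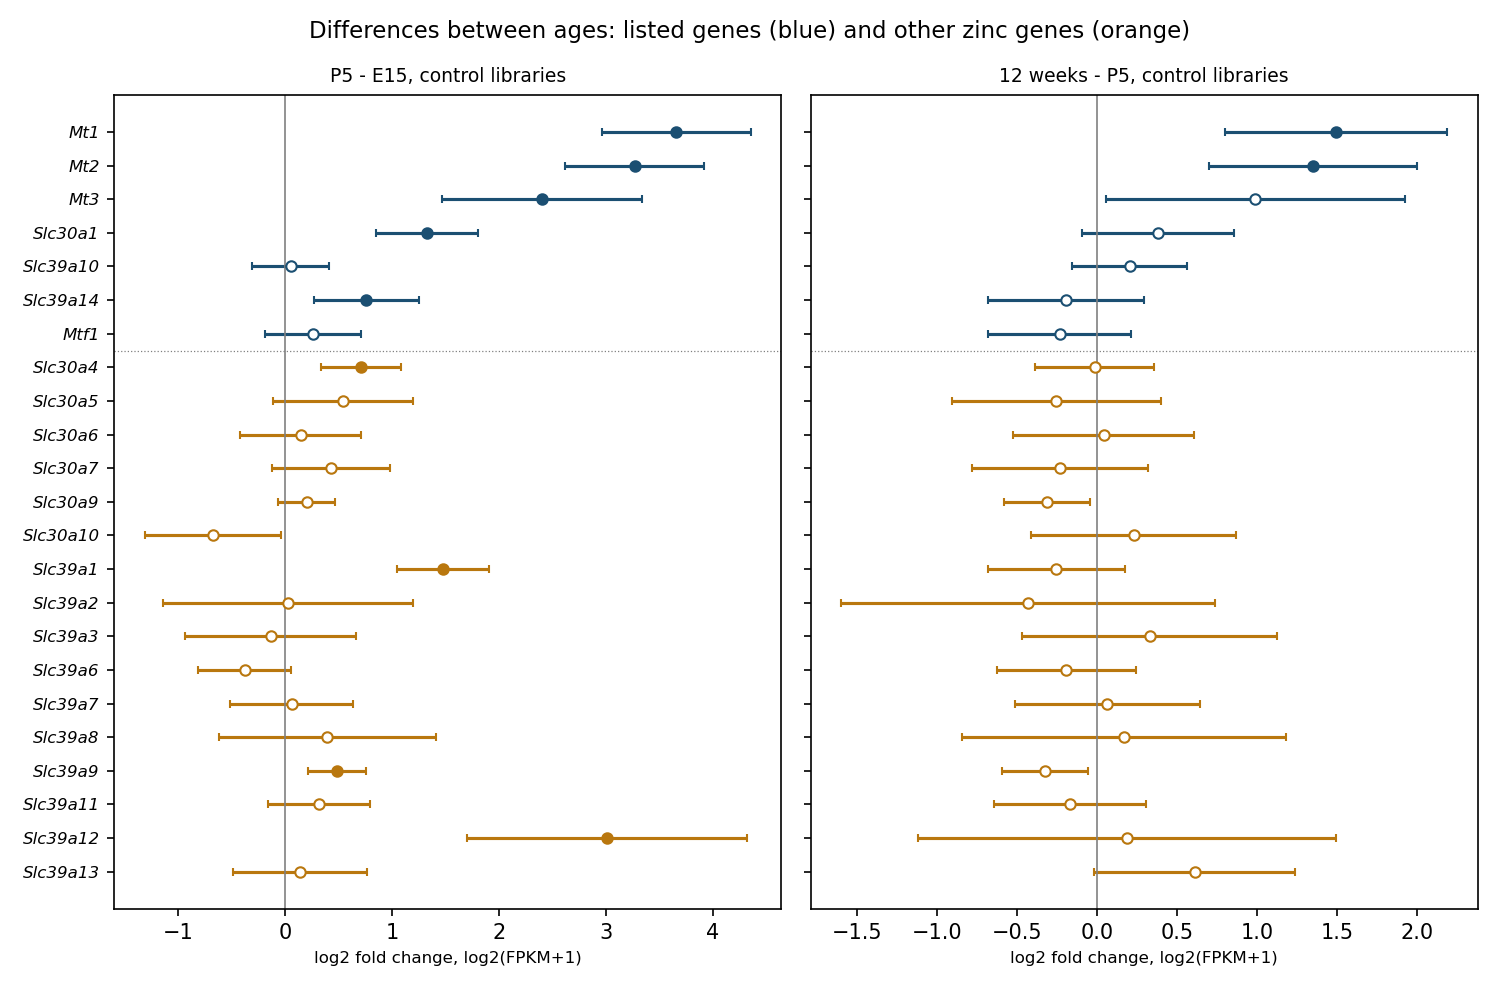
Log2 differences between ages in control libraries with 95% intervals for 7 listed genes (blue) and 16 other zinc genes (orange); filled points passed an adjusted p of 0.05 and the horizontal scales of the panels differ. Mt1, Mt2, Mt3 and Slc39a12 lie furthest right at the first step, and Mt1 and Mt2 alone are filled at the second.

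Genes of pathways that share inducers or metals with metallothioneins gave mixed counts, to be read against 20.7% of all genes called at the first step and 12.6% at the second. Of 11 copper and iron genes, Tfrc (transferrin receptor, 0.94) and Ccs (copper chaperone for superoxide dismutase, 0.57) rose and Ftl1 (ferritin light chain, -0.83) fell from E15 to P5. From P5 to 12 weeks, Slc40a1 (the iron exporter ferroportin, 2.29) and Cp (ceruloplasmin, 3.19) rose. Of 10 glucocorticoid-responsive genes, Sgk1 (1.31), Pdk4 (1.67) and Nfkbia (0.74) rose at the first step and Nfkbia (0.81) and Cdkn1a (2.35) at the second. Of 7 genes of the oxidative stress response, Gclc (0.41) and Srxn1 (1.09) rose and Slc7a11 (-0.70) fell at the first step. No oxidative stress gene was called at the second, where the unadjusted limma p was under 0.05 for 1 of 7.

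Prenatal VPA gave no called difference in the set at E15. None of the 7 tested genes passed in limma (1 had an unadjusted p under 0.05), against 0.0405% of all 12345 genes tested called and 1301 with an unadjusted p under 0.05. The median difference was 0.17, beside -0.01 over all genes, and was 0.10 without VPA replicate 3. Values of the 2 groups did not overlap for 2 of the 7 genes, Slc30a1 and Slc39a10, against 17.5% of all genes.

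The gene with the smallest p was Slc30a1. Its E15 levels were 5.75, 7.78 and 6.24 FPKM in VPA libraries, beside the control values of 3.16, 2.88 and 3.16 given above. Every VPA library lay above every control, and the VPA mean was 2.15 times the control mean (log2 difference 0.89, SE 0.12, 95% interval 0.60 to 1.18, adjusted p = 0.171 in limma). The difference was of similar size without the library rich in choroid plexus transcripts (0.92, limma adjusted p = 0.22). With the same replicate numbers in both groups, a replicate block cannot change the difference. It moved only the adjusted p, to 0.502 in limma. VPA-exposed E15 libraries thus lay between the control levels of E15 and P5. An antisense gene, 1700034H15Rik, overlaps Slc30a1, and its reads cannot be told apart where counting ignored the strand, which is not stated. The same limit holds for Mt2 (overlapped by Gm45774), Mtf1 (1110065P20Rik) and Slc30a3 (Gm9924 and Dnajc5g), all with genes on the opposite strand.

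The metallothionein genes overlapped between groups at E15. Mt1 had 9.24, 16.0 and 20.3 FPKM in VPA libraries, which overlapped the controls (0.40, 95% interval -0.22 to 1.01). Mt2 had 10.8, 15.1 and 10.9, also overlapping (0.09, -0.29 to 0.48). Mt3 had 33.6, 44.3 and 140.6, with only replicate 3 above the controls (0.61, -0.56 to 1.78). Replicate 3 is the library with choroid plexus transcripts, and without it the Mt3 difference was -0.004, that of Mt1 was 0.17 and that of Mt2 was 0.16. It also held 11.3 FPKM of Slc39a12, against 0.0214 and 0.0454 in the other VPA libraries, and 3.05 of Slc39a4 against 0.0783 and 0.0925. The part of choroid plexus transcripts in these values was not tested. Slc39a10 was lower in every VPA library, at 19.8, 21.1 and 20.0 FPKM, by a small amount (-0.09, -0.23 to 0.05). Mtf1 (-0.02, -0.25 to 0.21) and Slc39a14 (0.17, -0.16 to 0.50) overlapped between groups. Without VPA replicate 3, the differences were -0.08 for Slc39a10, -0.02 for Mtf1 and 0.10 for Slc39a14. None of 14 other zinc genes tested was called or had an unadjusted p under 0.05; the smallest p belonged to Slc39a1 (0.14), Slc39a7 (-0.13) and Slc39a11 (-0.19).

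At P5 no tested gene of the set passed the threshold in limma (2 had an unadjusted p under 0.05), against 2.24% of 13328 genes called and 3193 with an unadjusted p under 0.05. The median was -0.03, beside -0.004 over all genes. The groups did not overlap for Mt2, Mtf1 and Slc39a10, 3 of 7, against 29.4% of all genes. Mt2 had 161, 136 and 154.5 FPKM in VPA libraries, all above the controls at 127, 109.8 and 116. The VPA mean was 1.28 times the control mean (0.35, SE 0.08, 95% interval 0.16 to 0.54, limma adjusted p = 0.0729). Slc39a10 had 19.7, 19.0 and 21.2 FPKM, all below the controls (-0.17, -0.31 to -0.02, adjusted p = 0.159). Mtf1 had 5.21, 4.98 and 5.04 FPKM, also below the controls (-0.12, -0.29 to 0.05).

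The other metallothioneins did not separate at P5. Mt1 had 151, 158 and 166 FPKM in VPA libraries (0.10, 95% interval -0.10 to 0.30) and Mt3 had 193, 199.7 and 184 (-0.12, -0.45 to 0.20). Slc30a1 had 9.43, 9.26 and 8.21 FPKM (-0.03, -0.22 to 0.15), so its interval at P5 lay wholly below the interval at E15. The difference between these VPA effects was -0.92 (SE 0.32, 95% interval -1.60 to -0.25) in the fit of all libraries. It had an unadjusted p of 0.0101 and an adjusted p of 1 in limma, where 0.0955% of genes were called. Slc39a14 had 9.02, 9.93 and 9.63 FPKM (0.07, -0.13 to 0.27). Pericyte markers summed to 155 to 271 FPKM in VPA and 101 to 115 in control libraries at P5, and astrocyte markers to 736 to 777 and 737 to 876. Called among them were 2 of 7 pericyte markers, which rose, and 2 of 10 astrocyte markers, 1 risen and 1 fallen. All 7 radial glia markers had a log2 difference below 0 (median -0.36), and 1 was called. Endothelial markers summed to 7.95 to 10.5 FPKM in VPA and 3.63 to 5.43 in control libraries. Of 7 fibroblast markers 4 rose (sums of 41.0 to 49.8 in VPA and 17.6 to 21.5 in control libraries), 1 of 6 tested microglia markers rose (24.2 to 32.3 and 12.8 to 19.0), and 2 of 4 tested erythroid markers fell (92.7 to 397 and 727 to 1033). The part of these in the Mt2 values was not tested. Of 16 other zinc genes none was called, and only Slc39a11 (0.21, adjusted p = 0.13) had an unadjusted p under 0.05.

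At 12 weeks libraries of a group varied more than at the younger ages. Mt2 ranged from 160.5 to 420.0 FPKM among controls alone, and Mt1 from 298 to 522. The low end of both ranges came from control replicate 1. In that library microglia markers summed to 299 FPKM, against 29.9 and 57.0 in the other controls. Erythroid markers summed to 824 in it, against 0 and 162. The part of these transcripts in its values was not tested. For VPA against control, limma called none of the 7 genes (0 had an unadjusted p under 0.05) and 0% of 13847 genes, of which 885 had an unadjusted p under 0.05. None of the 7 was without overlap, against 15.5% of all genes, and the median was -0.27, beside -0.01 over all genes. Mt1 had 274, 300.4 and 453 FPKM in VPA libraries (-0.32, 95% interval -1.17 to 0.53), Mt2 had 197, 218 and 359 (-0.27, -1.13 to 0.59) and Mt3 had 164, 226 and 459.7 (-0.69, -1.59 to 0.20). All 3 metallothionein means were lower in VPA libraries, and each interval reached from below -1, a 2-fold lower level, to above 0.

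The transporters at 12 weeks overlapped as well. Slc30a1 had 11.2, 11.9 and 9.91 FPKM in VPA libraries (-0.15, 95% interval -0.90 to 0.60). Slc39a10 had 19.2, 29.1 and 16.0 (-0.31, -0.91 to 0.28) and Slc39a14 had 5.44, 12.2 and 10.96 (0.20, -0.64 to 1.03). Mtf1 had 6.46, 4.45 and 7.34 (0.31, -0.57 to 1.20). Astrocyte markers summed to 611 to 799 FPKM in VPA and 716 to 1300 in control libraries, and 9 of the 10 markers had a log2 difference below 0. Sums that did not overlap were those of endothelial markers (75.03 to 238 in VPA and 245 to 439 in control libraries), newborn neuron markers (678 to 838 and 1057 to 1195), neuron markers (196 to 232 and 247.5 to 272) and markers of oligodendrocytes and their precursors (893 to 1375 and 768 to 860). No marker of these lists was called, and their part in the values above was not tested. The change of the VPA effect from P5 to 12 weeks was called for none of the 7 genes (0 had an unadjusted p under 0.05), against 0.389% of all genes.

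Running was compared with VPA alone at 12 weeks, where both groups had been exposed before birth. Limma called none of the 7 genes (1 had an unadjusted p under 0.05) and 0% of all genes, of which 1566 had an unadjusted p under 0.05. None of the 7 was without overlap, against 15.5% of all genes; the median was 0.35, beside -0.055 over all genes. Mt2 had 630.1, 492 and 337 FPKM with running and 197, 218 and 359 without. The lowest running library lay below the highest VPA library, and the difference was 0.92 (SE 0.39, 95% interval 0.06 to 1.78, limma adjusted p = 0.41). Marker sums that separated the same groups were those of astrocytes, at 1175 to 1502 FPKM with running and 611 to 799 without, of oligodendrocytes and their precursors, at 613 to 628 and 893 to 1375, and of microglia, at 9.79 to 42.4 and 58.1 to 67.3. Single astrocyte markers were divided, with 7 of the 10 at a log2 difference above 0, 3 below and none called. S100b was lower with running without overlap, at 25.2 to 76.4 FPKM against 100.9 to 124.7. The part of these markers in the Mt2 difference was not tested.

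Mt1 had 688, 480.5 and 227 FPKM with running, so the running group held both the highest and the lowest Mt1 level at 12 weeks (0.34, 95% interval -0.51 to 1.18). Mt3 had 455, 363 and 256 (0.44, -0.46 to 1.33). Slc30a1, in the same replicate order, had 10.9, 14.1 and 23.2 FPKM with running (0.45, -0.31 to 1.20). The library highest in Slc30a1, at 23.2 FPKM, was lowest in Mt1, at 227, and was also the one with the fewest genes above 0, at 12019; the part of that in its values was not tested. Slc39a10 had 27.2, 30.2 and 23.3 FPKM (0.35, -0.24 to 0.94), Slc39a14 had 5.76, 7.24 and 7.76 (-0.35, -1.19 to 0.48) and Mtf1 had 5.51, 3.34 and 6.43 (-0.23, -1.11 to 0.65).

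Against controls, the running group had no called gene among the 7 (0 had an unadjusted p under 0.05) and 0% over all genes, of which 1074 had an unadjusted p under 0.05. No gene of the 7 was without overlap, against 13.1% of all genes, and the median was 0.04, beside -0.07 over all genes. The widest difference was that of Mt2 (0.64, 95% interval -0.22 to 1.5). That of Mt1 was 0.02 (-0.83 to 0.86), and -0.22 without control replicate 1. The comparisons at 12 weeks share libraries, so they are not independent of each other.

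**Figure D5:**
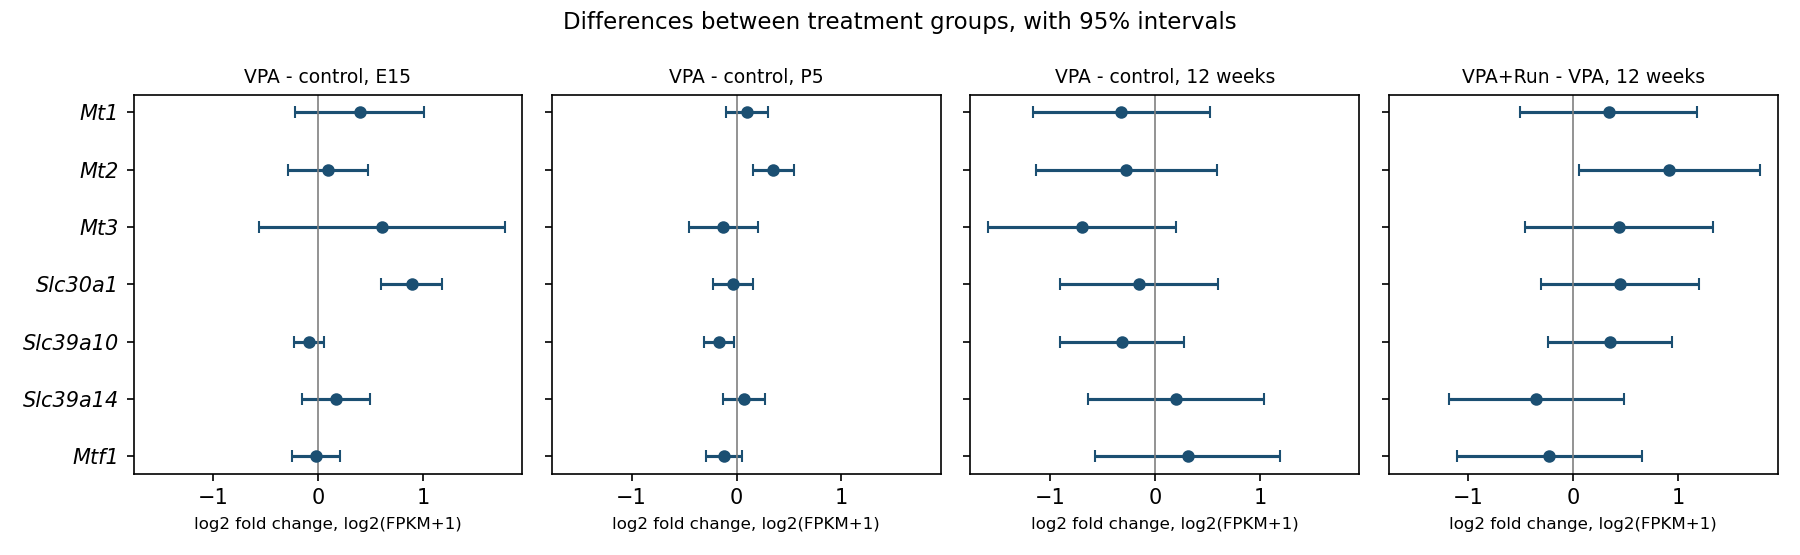
Log2 differences with 95% intervals for the 7 tested genes in 4 comparisons, VPA against control at E15, P5 and 12 weeks and VPA with running against VPA. Intervals are narrow at P5 and wide at 12 weeks; Slc30a1 at E15, Mt2 and Slc39a10 at P5 and Mt2 with running lie wholly to one side of 0, and none passed the adjusted threshold.

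Among the other zinc genes at 12 weeks, Slc39a12 had the smallest p in both comparisons. It had 6.92, 9.37 and 10.4 FPKM in control libraries when sorted by level, 2.65, 4.21 and 5.39 in VPA libraries and 12.2, 12.4 and 14.8 in running libraries. The 3 groups did not overlap, with VPA lowest and running highest. The difference was -0.98 for VPA against control (95% interval -1.77 to -0.20, limma adjusted p = 0.665) and 1.51 for running against VPA (0.72 to 2.30, adjusted p = 0.175). Slc39a11, another importer gene, gave -0.84 (adjusted p = 0.729) and 0.95 (adjusted p = 0.337). None of the 16 was called in either comparison. The astrocyte marker sum, with overlaps between neighbouring groups, was 611 to 799 FPKM in VPA, 716 to 1300 in control and 1175 to 1502 in running libraries, and its part was not tested. Not every astrocyte marker followed that order. S100b had its highest group mean in VPA libraries, at 108.9 FPKM, against 62.1 in control and 54.7 in running libraries.

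Setting all 7 groups in order of mean level, Mt1 ran from 10.8 ± 1.61 FPKM (SD, n = 3) in E15 controls and 15.2 ± 5.57 in E15 VPA libraries through 148 ± 16.5 and 158 ± 7.71 at P5 to 342.5 ± 96.9 in VPA, 429 ± 116 in control and 465 ± 231 in running libraries at 12 weeks. Only the gaps between ages were free of overlap. For Mt2, P5 controls at 118 ± 8.46 also lay wholly below P5 VPA libraries at 150.5 ± 13.4, and the lowest 12-week control, at 160.5, lay among the P5 VPA values. Slc30a1 ran from 3.07 ± 0.161 FPKM in E15 controls over 6.59 ± 1.06 in E15 VPA libraries to 8.97 ± 0.658 and 9.20 ± 0.564 at P5. At 12 weeks it had 11.01 ± 1.02 in VPA, 12.5 ± 3.50 in control and 16.1 ± 6.37 in running libraries.

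Genes with a profile most like each member were found among 10797 genes by Pearson correlation of log2(FPKM + 1) over the 21 libraries, a description without a test because libraries of 1 age share most of that profile. For Mt1 they included Ndrg2, Csrp1 and Sparcl1 (each 0.988) and Mt2 (0.987). For Mt2 they were led by Ppap2b and Aldoc (both 0.99) and for Mt3 by Naaa (0.969) and Clu (0.968). Slc30a1 was most like Phc3 (0.926) and Cpd (0.895). With the mean of each age subtracted, Mt1 was most like Csrp1 (0.836), followed by Parva (0.828) and Mt3 (0.812). On that scale Mt2 was led by Tbc1d15 (0.881), and genes like Mt3 included Cst3 (0.852) and Slco1c1 (0.848). Between members on that scale, Mt1 and Mt2 correlated at 0.683, and Mt1 and Slc30a1 at 0.021. Mtf1 and Slc39a10 ran in opposite directions, at -0.742.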

How the data were processed

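RNA of sorted cells was measured in 21 libraries. The authors deposited 1 table of FPKM per library. TopHat, Bowtie2, Cufflinks and Cuffdiff and the build mm10 are named in the submitters' processing notes, without versions. Headers name FPKM at 12 weeks only; at E15 and P5 the unit was inferred from the values. Whether the ages were normalized together is not given in the sources used here, so differences between ages may hold differences of processing. Strand and depth are not given.

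Values were analysed as log2(FPKM + 1) with limma 3.58.1 (R 4.3.3, trended eBayes), for genes that reached 1 FPKM in 3 or more of the libraries fitted. Treatments were fitted within each age (all 3 groups at 12 weeks) and ages and differences of effects over all 21 libraries. Called means a Benjamini-Hochberg adjusted p under 0.05 over all genes tested. The scripts were tested on simulated data. The members and lists were chosen with earlier results of these data known. All members are named; other zinc genes are named if called, otherwise the 3 with the smallest p, not all of them printed. One gene among those most alike is not reported here. Gene positions follow GENCODE vM21. The fits printed carry no replicate block, which was an alternative. Replicate numbers can pair the libraries at E15, where same-numbered control and VPA libraries deviated together over genes (r from 0.115 to 0.228); the corresponding r was 0.013 to 0.094 at P5 and -0.071 to -0.018 at 12 weeks.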

Additional observations from a re-analysis of the deposited data

How the results depend on the processing

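Alternatives were median-of-ratios scaling, a replicate block, a pseudocount of 0.1, a stricter filter at 5 FPKM or none, leaving out each library and, at 12 weeks, fits of only the 2 groups compared. The number of listed genes called stayed within 1.5 times in all 123 recomputed counts. Of 860 recomputed differences of single genes, 832 kept direction and call, 5 lost the call (all Slc39a14 from E15 to P5, given above) and 23 changed sign without a call; the cause was not tested. The filters, the replicate block and fits of only the 2 groups compared cannot change a difference, only its p, and are counted among the 860. At 12 weeks the same holds for leaving out a library of the group not compared. With the replicate block, Slc39a14 from E15 to P5 had a limma adjusted p of 0.0577 at the unchanged difference of 0.76. No other call changed with it. With scaling, Slc39a10 from E15 to P5 became -0.06. Leaving out 1 library, from E15 to P5 4 to 5 genes were called. For VPA at E15, Mtf1 ran from -0.084 to 0.022, Mt2 from -0.053 to 0.171 and Mt3 from -0.004 to 1.01. At P5, Mt3 ran from -0.268 to 0.032 and Slc30a1 from -0.081 to 0.022, and at 12 weeks Slc30a1 from -0.264 to 0.055. For running, Mt1 ran from -0.015 to 0.782 against VPA and, against control, Mt1 from -0.34 to 0.46, Slc39a10 from -0.064 to 0.175 and Mtf1 from -0.078 to 0.31. The change of the VPA effect from E15 to P5 ran from -0.172 to 0.023 for Slc39a14, and from P5 to 12 weeks from -0.23 to 0.089 for Slc30a1, -0.066 to 0.451 for Slc39a14 and -0.382 to 0.032 for Slc39a10.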

Other observations

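Set against the astrocyte marker sum of the same library, a ratio computed after the values were seen, Mt1 stood at 0.186 ± 0.0259 (SD, n = 3) in E15 controls, 0.180 ± 0.0178 in P5 controls and 0.418 ± 0.0177 in 12-week controls. The first 2 overlapped and the third lay above both. Mt2 over the same sum was 0.194 ± 0.0136, 0.143 ± 0.0153 and 0.309 ± 0.0789. Mt3, the form most typical of the nervous system, was 0.67 ± 0.102 at E15, 0.257 ± 0.0357 at P5 and 0.425 ± 0.0953 at 12 weeks, with no overlap between the ages. With running, Mt3 stood at 0.27 ± 0.0627 and Mt1 at 0.348 ± 0.151, beside 0.398 ± 0.165 and 0.491 ± 0.0766 in VPA libraries at 12 weeks, and both pairs of groups overlapped. Mt2 stood at 0.366 ± 0.0918 with running and 0.368 ± 0.0761 in VPA libraries. These ratios carry no test and depend on the markers summed. The sum cannot separate astrocytes from sorted stem cells that hold the same transcripts, so it is no measure of astrocyte content. Of the 10 markers, 4 rose and 3 fell from P5 to 12 weeks in controls. The sum weighs them by level, and in 12-week controls Slc1a3 (mean 367 FPKM) and Aldoc (308) were its largest parts. No ratio to another marker list was taken.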
